A study of Mus musculus with 2 samples.

Results

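The genes described here make, take up and sense cholesterol in the liver. The 31 genes were listed by name and function, with no value used as a criterion, although earlier results of these data were known when they were listed: the regulators of SREBP2, the enzymes that lead from acetyl-CoA to cholesterol, and genes of lipoprotein uptake, intracellular sterol transport and esterification. A gene's value was the mean of the probe sets that carry its symbol alone. Of the 31 genes, 27 had such a probe set, out of 22180 genes with one in all. Acat2, Soat1 and Soat2 had no value and are not analysed here. Idi1 was listed only on a probe set that it shares with the gene model Gm13502, so it stands outside the 27.

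The study compared liver RNA of wild-type (WT) mice with that of E4bp4-LKO mice, a genotype the series title calls E4bp4-deficient, after a high-fat diet. E4BP4, encoded by Nfil3, is a transcriptional repressor of the basic leucine zipper family. All mice were males that entered the diet aged 2 months and ate it for 12 weeks, and RNA was pooled within each genotype, so 1 array stands for each. The sources used here do not give how many mice made up a pool, how the gene was removed or at what hour livers were taken. Values are log2 intensities as deposited, and each difference subtracts the WT value from the E4bp4-LKO value, so it is positive where the E4bp4-LKO array was higher. There are no replicates, so no difference has an error or a test against the variation between mice. Fewer cells of a type and less RNA per cell cannot be told apart in RNA from whole liver.

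Liver cells balance cholesterol through SREBP2, a membrane-bound transcription factor. When sterols are scarce, the escort protein SCAP carries SREBP2 from the endoplasmic reticulum to the Golgi, where it is cleaved, and the freed part switches on the synthesis enzymes and genes of uptake. When sterols are plentiful, the INSIG proteins hold SCAP back, and oxysterols activate the liver X receptors (LXRs), which switch on genes of efflux and of receptor breakdown.

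Nfil3 itself lay at 5.94 on the WT array and at 4.47 on the E4bp4-LKO array, a difference of -1.47. Where its probes lie relative to the deleted part was not examined. Of 8 hepatocyte markers, such as Asgr1 and Ahsg, all were measured above the floor, with differences between -0.08 and 0.17. The floor, 4.20 on the log2 scale, is the median over all genes of their mean on both arrays, and 11090 genes lay above it. Adiponectin, leptin and perilipin 1 genes, markers of fat cells, lay below it. Stellate cell, endothelial, skeletal muscle and proliferation markers had median differences of -0.58, -0.31, -0.91 and -0.78. Squamous epithelium markers went both ways, from -2.22 (Sprr1a) to 2.95 (Krt4). Their part in the differences of the cholesterol genes, or of the other sterol genes named further below, was not tested.

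The cholesterol genes lay close to each other on the 2 arrays. All 27 were above the floor, and none differed by 1.5-fold (0.58 on the log2 scale) in either direction. Of the 11090 genes over the floor, 1.51% passed 1.5-fold upwards and 2.06% passed it downwards on the E4bp4-LKO array, so a count of 0 among 27 is near what those shares give. At the lower mark of 1.2-fold (0.26), 3 of the 27 genes were higher, Tm7sf2, Stard4 and Insig2, and 1 was lower, Mylip. These are 11.1% and 3.70% of the 27, beside 10.6% and 12.7% of all genes above the floor. With each array centred on its own median gene, 4 were higher, Ebp joining them, and 0 lower, beside 12.9% and 10.5% of all genes. With the intensity trend removed 3 were higher and 0 lower, beside 12.3% and 10.9%. The median difference was -0.01 over the 27 genes and -0.02 over all genes above the floor. Values were higher on the E4bp4-LKO array for 12 of the genes and lower for 15, beside 5043 and 6045 of the 11090 genes above the floor.

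The differences of the 27 genes ran from -0.27 to 0.37, with a standard deviation (SD) between genes of 0.17. All lay inside the range of the middle 95% of genes over the floor, which ran from -0.54 to 0.49. A rough yardstick for a single value is the disagreement between probe sets of one gene: over 555 genes above the floor with 2 probe sets, the SD of their differences within a gene was 0.22. Of the 27 cholesterol genes, 22 (81.5%) differed by less than this, as did 69.3% of all genes above the floor. Among the 27, 25 were brighter than the median of the genes above the floor, so these shares come from sets of unlike brightness. The SD between genes was 0.26 over the 7650 genes at least as bright as Scap, the dimmest of the 27. The means of Scap and Npc1 each join a bright and a dim probe set, and the next dimmest gene, Mvk, had a mean of 6.53. The 7650 genes therefore take in many dimmer than most of the 27.

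**Figure D1:**
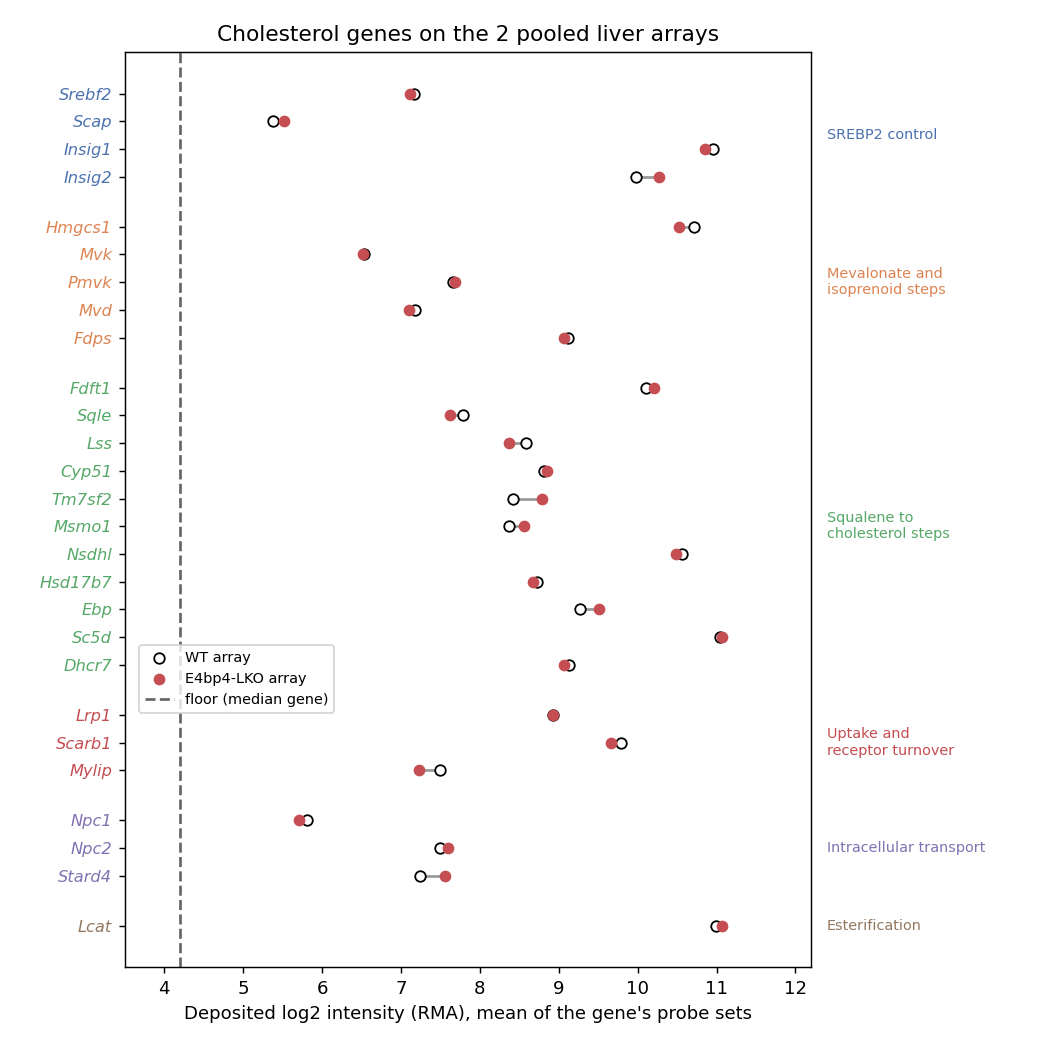
Deposited log2 intensity (x axis) of each of the 27 measured cholesterol genes on the WT array (open circles) and the E4bp4-LKO array (filled circles), grouped by role; the dashed line is the floor at 4.20. Each pair of circles is close together, and the widest gap is that of Tm7sf2, at 8.42 (WT) and 8.79 (E4bp4-LKO).

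**Figure D2:**
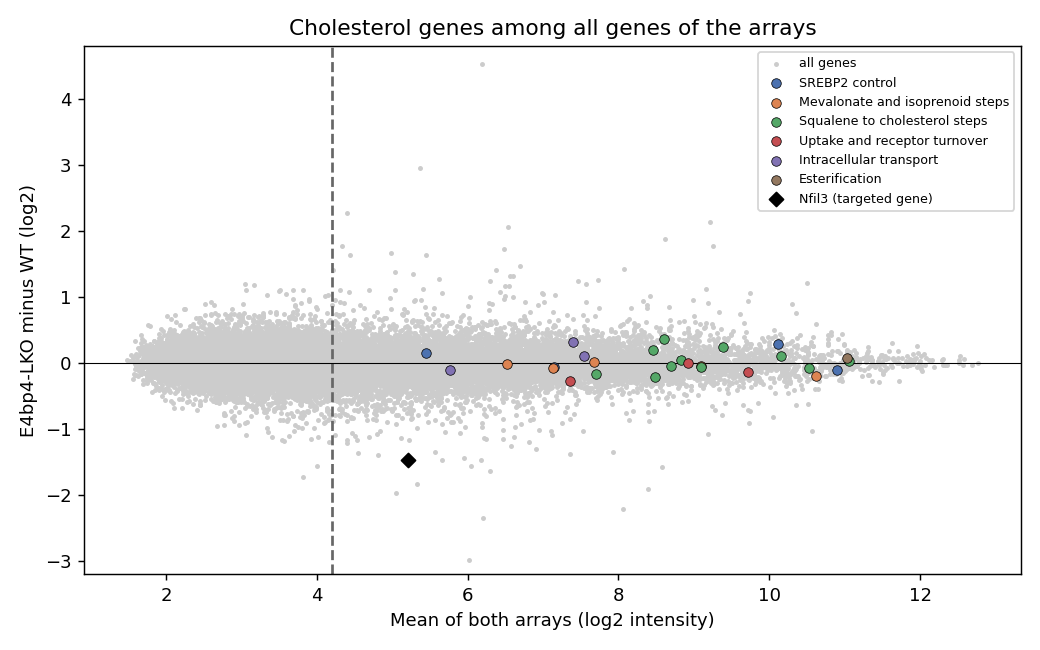
Difference (E4bp4-LKO minus WT, log2, y axis) against the mean of both arrays (log2 intensity, x axis) for all 22180 genes (grey) and the 27 cholesterol genes (coloured by role); the dashed line is the floor. The cholesterol genes lie between -0.27 and 0.37, while the targeted gene Nfil3 (diamond) lies at -1.47.

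Among the 4 regulators of SREBP2, the INSIG genes differed in opposite directions. Insig2 (Entrez 72999) lay at 9.98 on the WT array and at 10.27 on the E4bp4-LKO array, a difference of 0.29 (1.22-fold). Of all genes above the floor, 19.3% differed by at least as much in either direction. Insig1, which is itself an SREBP2 target, lay at 10.96 and 10.85, a difference of -0.11. INSIG2 is the form whose liver transcript is known to fall with insulin and to be held down by the clock repressor REV-ERBα, encoded by Nr1d1. Nr1d1 lay at 9.56 (WT) and 8.91 (E4bp4-LKO), a difference of -0.65, and Arntl, its activator BMAL1, at 5.83 and 6.74. Other clock genes varied: Nr1d2, Clock and Per1 differed by only 0.04, -0.05 and -0.03. Dbp, Per3 and Ciart differed by -1.08, -0.68 and -0.63, and Npas2 by 0.60. Of the 10 clock genes measured, all above the floor, 4 were higher and 6 lower, with a median of -0.04. By at least 1.5-fold, 2 of the 10 were higher and 4 lower, beside 1.51% and 2.06% of all genes above the floor. What part the clock genes or the hour of collection had in the Insig2 value was not tested.

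Srebf2, which encodes SREBP2, hardly differed, at 7.17 (WT) and 7.11 (E4bp4-LKO). Scap lay at 5.37 and 5.52, a difference of 0.15, but this mean joins 2 probe sets that went opposite ways. The bright one read 7.55 and 7.44, a difference of -0.11. The dim one, below the floor, read 3.19 and 3.60, a difference of 0.40. The direction for Scap therefore rests on the dim probe set. An array of RNA does not show whether SREBP2 is cleaved, so these values bear on transcript levels alone.

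The first enzymes of the pathway turn acetyl-CoA into the isoprenoid farnesyl diphosphate, and 5 of the 7 chosen here had a value. Hmgcs1, the cytosolic HMG-CoA synthase, was farthest from 0 among them, at 10.72 (WT) and 10.52 (E4bp4-LKO), a difference of -0.20 (1.15-fold). The next enzymes in order were nearly level between the arrays. Mvk, mevalonate kinase, lay at 6.53 and 6.52. Pmvk, phosphomevalonate kinase, lay at 7.66 and 7.68. Both differences were 0.02 or smaller in size. Mvd, the decarboxylase that makes isopentenyl diphosphate, lay at 7.18 and 7.10, a difference of -0.08. Fdps, farnesyl diphosphate synthase, lay at 9.12 and 9.07, a difference of -0.04. The median of the 5 was -0.04, and 4 of the 5 were lower on the E4bp4-LKO array, none by 1.2-fold. Of all 11090 genes above the floor, 6045 were lower.

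For the missing steps there were only partial readings. The probe set shared by Idi1, the isopentenyl diphosphate isomerase, and Gm13502 read 8.08 on the WT array and 8.19 on the E4bp4-LKO array, a difference of 0.11. Acat3, a close relative of the cytosolic thiolase gene Acat2, lay at 9.02 and 8.99. Signals of near-identical genes are hard to part on an array, so the Acat3 value may hold signal of Acat2. Acat1, the mitochondrial thiolase, differed by 0.02.

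From squalene onward the pathway makes the sterol ring and trims it to cholesterol, and all 11 enzymes had a value. Tm7sf2 (Entrez 73166), a sterol reductase that acts after Cyp51, had the largest difference of all 27 genes. It lay at 8.42 on the WT array and at 8.79 on the E4bp4-LKO array, a difference of 0.37 (1.29-fold). Of all genes above the floor, 11.9% differed by at least as much. Lbr, the lamin B receptor, carries the same reductase activity and lay at 6.39 and 6.53, a difference of 0.14.

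The enzymes on either side of Tm7sf2 did not share its direction throughout. Fdft1, squalene synthase, lay at 10.10 (WT) and 10.20 (E4bp4-LKO), a difference of 0.10. Sqle, squalene epoxidase, a rate-controlling enzyme of the pathway, lay at 7.79 and 7.63, a difference of -0.16. Lss, which closes the ring to lanosterol, lay at 8.59 and 8.37, a difference of -0.22 (1.16-fold). Lss was the lowest of the 16 measured synthesis enzymes relative to WT. Cyp51, the lanosterol demethylase just before Tm7sf2, was almost level at 8.81 and 8.86.

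Msmo1, Nsdhl and Hsd17b7 work one after the other to remove methyl groups from the ring. Msmo1 lay at 8.37 (WT) and 8.56 (E4bp4-LKO), a difference of 0.19. Nsdhl lay at 10.56 and 10.49, and Hsd17b7 at 8.72 and 8.68, differences of -0.07 and -0.05. Thus the oxidase was above its WT value and its partners slightly below theirs. Ebp, the isomerase that follows, lay at 9.27 and 9.51, a difference of 0.24 (1.18-fold), just short of the 1.2-fold mark.

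The last enzymes of the pathway differed little. Sc5d, a desaturase, lay at 11.05 (WT) and 11.07 (E4bp4-LKO). Dhcr7, the reductase that completes cholesterol on one of the routes, lay at 9.13 and 9.06. Over the 11 enzymes from squalene synthase on, 6 exceeded their WT value and 5 were under it, with a median of 0.02. Over all 16 measured enzymes, 7 were higher and 9 lower, with a median of -0.03 and an SD between genes of 0.16. Over all 11090 genes above the floor, 5043 were higher and 6045 lower.

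**Figure D3:**
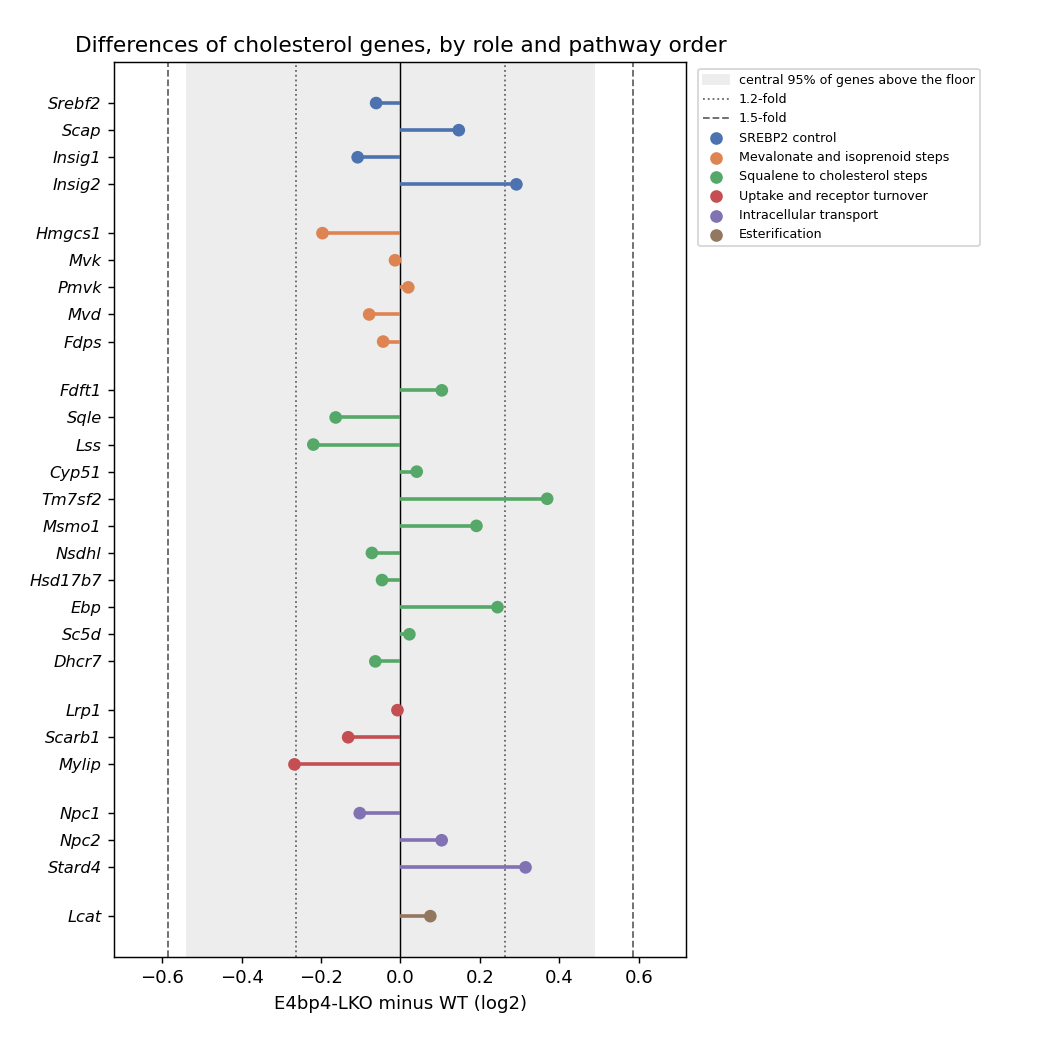
Difference between the arrays (E4bp4-LKO minus WT, log2, x axis) for the 27 measured cholesterol genes, enzymes in pathway order; the grey band is the central 95% of genes above the floor, and the dotted and dashed lines mark 1.2-fold and 1.5-fold. Tm7sf2 (0.37), Stard4 (0.32) and Insig2 (0.29) pass the dotted line on the right and Mylip (-0.27) on the left, and no gene reaches a dashed line.

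Promoters of sterol genes are known to combine a sterol regulatory element, where SREBP2 binds, with sites for its helpers NF-Y and Sp1. RefSeq promoter windows of assembly GRCm38.p6, from 250 bases before to 50 after each start, were at hand for 24 of the 31 genes, 30 windows in all, since Dhcr7, Insig2, Pmvk and Scap have several starts. Fdft1, Fdps, Npc1, Scarb1, Soat2, Sqle and Stard4 had no entry. Both strands were searched for TCACNCCAC (core of the sterol element), CCAAT (NF-Y), GGGCGG (Sp1), and TTATGTAA and TTACGTAA, forms of the D-box that E4BP4 uses. No matches of different motifs overlapped.

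The windows of 3 genes are printed 5′ to 3′ as examples: Hmgcs1, the only one with the core of the sterol element, Tm7sf2, with the highest difference, and Mylip, with the lowest. Capitals mark every match, on either strand. The windows lie at chr13:119690101-119690400 on the plus strand (Hmgcs1), chr19:6067801-6068100 on the minus strand (Tm7sf2) and chr13:45389492-45389791 on the plus strand (Mylip).
Hmgcs1: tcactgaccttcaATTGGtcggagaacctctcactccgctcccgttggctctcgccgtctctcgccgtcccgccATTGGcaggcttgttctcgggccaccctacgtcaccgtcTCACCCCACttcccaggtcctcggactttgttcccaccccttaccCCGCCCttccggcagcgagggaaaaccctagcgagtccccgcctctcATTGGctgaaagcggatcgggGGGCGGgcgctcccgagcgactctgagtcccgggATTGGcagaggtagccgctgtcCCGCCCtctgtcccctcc
Tm7sf2: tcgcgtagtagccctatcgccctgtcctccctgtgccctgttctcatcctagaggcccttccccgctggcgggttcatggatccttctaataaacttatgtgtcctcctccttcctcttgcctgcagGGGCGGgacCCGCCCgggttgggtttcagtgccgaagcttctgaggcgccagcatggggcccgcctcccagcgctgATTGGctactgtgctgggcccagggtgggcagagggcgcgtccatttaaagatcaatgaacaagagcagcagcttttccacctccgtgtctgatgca
Mylip: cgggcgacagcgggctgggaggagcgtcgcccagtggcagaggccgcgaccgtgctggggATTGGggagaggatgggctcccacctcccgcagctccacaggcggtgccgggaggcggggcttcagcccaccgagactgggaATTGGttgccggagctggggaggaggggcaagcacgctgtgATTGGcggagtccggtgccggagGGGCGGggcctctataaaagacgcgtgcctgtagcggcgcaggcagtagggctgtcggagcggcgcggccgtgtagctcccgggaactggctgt
The Hmgcs1 window holds 1 core of the sterol element, 4 CCAAT matches and 3 Sp1 matches. The Tm7sf2 window has 1 CCAAT and 2 Sp1 matches, and that of Mylip 3 CCAAT and 1 Sp1.

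CCAAT occurred in 21 of the 30 windows (70.0%), compared with 37.4% of the 11198 windows of genes above the floor and 37.4% of all 32851 windows. The Sp1 motif occurred in 25 of 30 (83.3%), compared with 60.3% and 35.7%. The core of the sterol element was in 1 of 30 (3.33%), against 1.18% and 1.24%. Neither D-box form was found in any of the 30 windows. TTATGTAA occurred in 0.518% of the windows of genes above the floor and in 0.938% of all windows, and TTACGTAA in 0.188% and 0.119%. At shares this low, finding none in 30 windows is no result about the cholesterol genes. A match is a description of letters and not a binding site, and elements outside these 300 bases were not searched. The windows of the cholesterol genes were also richer in G and C, with a median of 62.2% against 60.3% for genes above the floor and 52.7% for all windows. The 3 starts of Insig2 differed in this respect: 1 window had 3 CCAAT matches and no Sp1 match, and each of the others had 1 Sp1 match and no CCAAT. The array value does not say which start was used.

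**Figure D4:**
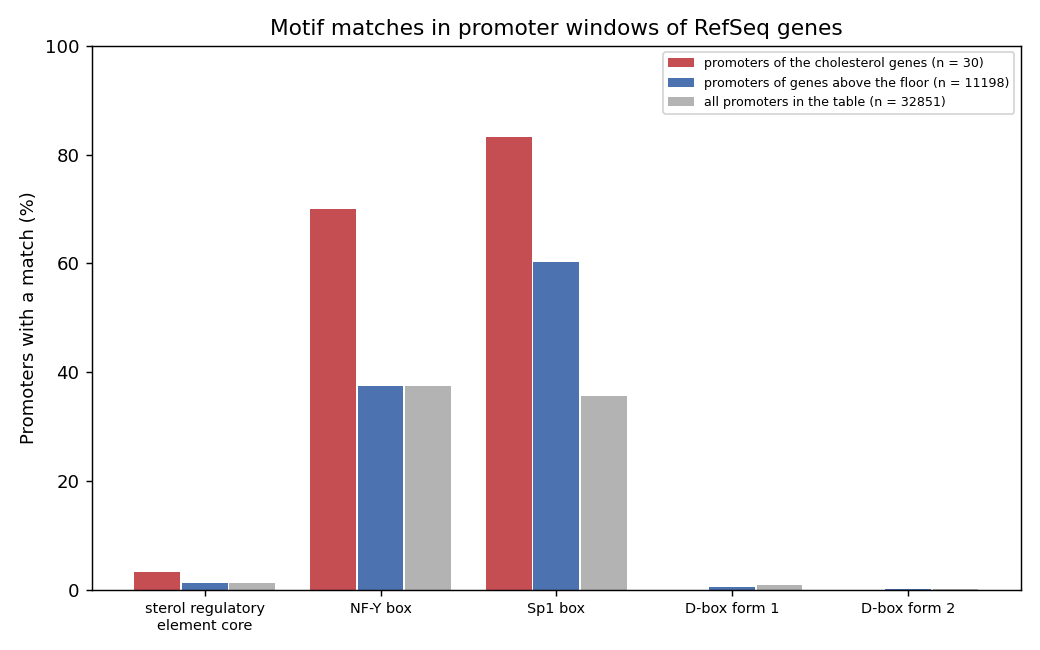
Share of promoter windows (%, y axis, from 0) with at least 1 match to each motif (x axis) for the cholesterol genes (30 windows), genes above the floor (11198) and all windows (32851). NF-Y boxes (70.0%) and Sp1 boxes (83.3%) stand in most windows of the cholesterol genes, and no D-box form does.

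Of the 3 genes of uptake and receptor turnover, which act in different directions on uptake, none was above its WT value. Of all 11090 genes above the floor, 6045 were lower. Lrp1, which was level, turned slightly positive (0.03) when each array was centred on its own median gene or the intensity trend was removed. Mylip (Entrez 218203), an LXR-induced ubiquitin ligase that sends lipoprotein receptors to breakdown, lay at 7.50 on the WT array and at 7.23 on the E4bp4-LKO array, a difference of -0.27. This was the lowest difference of the 27 genes, and 22.6% of all genes above the floor differed by at least as much. It lies only just past the 1.2-fold mark. Under the same alternatives no cholesterol gene was 1.2-fold lower. Scarb1, the receptor that takes cholesteryl esters from high-density lipoprotein, lay at 9.79 and 9.66, a difference of -0.13. Lrp1, the receptor for chylomicron remnants, was level at 8.93 and 8.92.

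Of the 3 genes of sterol transport inside the cell, Stard4 had the largest difference. Stard4 (Entrez 170459), a soluble sterol carrier and SREBP2 target, lay at 7.24 (WT) and 7.56 (E4bp4-LKO), a difference of 0.32 (1.24-fold). Of all genes above the floor, 17.0% differed by at least as much. Npc2, the soluble protein that hands cholesterol to NPC1 in the lysosome, lay at 7.49 and 7.60, a difference of 0.10. Npc1 lay at 5.81 and 5.71, a difference of -0.10, as a mean of 2 probe sets. Its bright probe set read 8.83 and 8.58, a difference of -0.24. The dim one, below the floor, read 2.80 and 2.84.

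Macrophages also express Npc2 and Lrp1. Of 12 macrophage markers, all above the floor in their mean, 5 had a positive and 7 a negative difference, from -1.98 for Gpnmb to 0.40 for Lyz2. By at least 1.2-fold, 3 of the 12 were higher and 6 lower, beside 10.6% and 12.7% of all genes above the floor. The summed linear intensity of the markers, in which bright ones weigh most, was 1953 (WT) and 1930 (E4bp4-LKO). The part of macrophages in the Npc2 and Lrp1 values was not tested.

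For esterification there is a value for 1 gene. Lcat, the plasma enzyme that esterifies cholesterol on high-density lipoprotein and is made by hepatocytes, lay at 11.00 (WT) and 11.07 (E4bp4-LKO), a difference of 0.08.

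Other genes of sterol handling were put in lists by function. In the list of SREBP processing and sterol-linked protein breakdown, 12 of 14 genes were measured, and none differed by 1.5-fold. Lower by at least 1.2-fold were 3 of the 12, Rnf145, Erlin1 and Erlin2, and none was higher by as much, beside 12.7% and 10.6% of all genes above the floor. Rnf145, a sterol-responsive ubiquitin ligase, lay at 6.36 (WT) and 5.98 (E4bp4-LKO), a difference of -0.37. The erlins, which form a cholesterol-binding complex of the endoplasmic reticulum, differed by -0.33 (Erlin1) and -0.31 (Erlin2). Mbtps1 and Mbtps2, the proteases that cut SREBPs in the Golgi, differed by 0.02 and -0.03, and Srebf1, the gene of SREBP1, by 0.02. Rnf139, another ligase of the membrane, differed by 0.11.

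The list of oxysterol sensing and efflux held the widest differences. Of its 7 genes above the floor, 1 was at least 1.5-fold lower, Cyp46a1, the cholesterol hydroxylase known mainly from neurons, and none was higher by as much, beside 2.06% and 1.51% of all genes above the floor. Cyp46a1 lay at 6.68 (WT) and 5.23 (E4bp4-LKO), a difference of -1.44 (2.72-fold). Abcg1, a sterol efflux transporter, lay at 6.29 and 5.80, a difference of -0.49. Abcg8 lay at 9.32 and 8.93, a difference of -0.38, while Abcg5, its partner in biliary sterol export, differed by -0.11. In the other direction, Cyp7b1, an oxysterol hydroxylase of bile acid synthesis, differed by 0.44. Nr1h3, which encodes LXRα, differed by 0.21.

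Receptor partners and lipoprotein remodelling genes had a median of -0.26 over 6 genes above the floor, of which 5 were lower. Over all 11090 genes above the floor the median was -0.02, and 6045 were lower. Vldlr, a receptor for triglyceride-rich lipoprotein, lay at 5.24 (WT) and 4.52 (E4bp4-LKO), a difference of -0.72, and was the only one of the 6 past 1.5-fold, a mark that 2.06% of all genes passed downwards. The fatty acid transporter Cd36 differed by -0.30, the phospholipid transfer protein Pltp by -0.29 and the sorting receptor Sort1 by -0.24. The part of cells other than hepatocytes in the Vldlr, Cd36 and Abcg1 values was not tested.

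**Figure D5:**
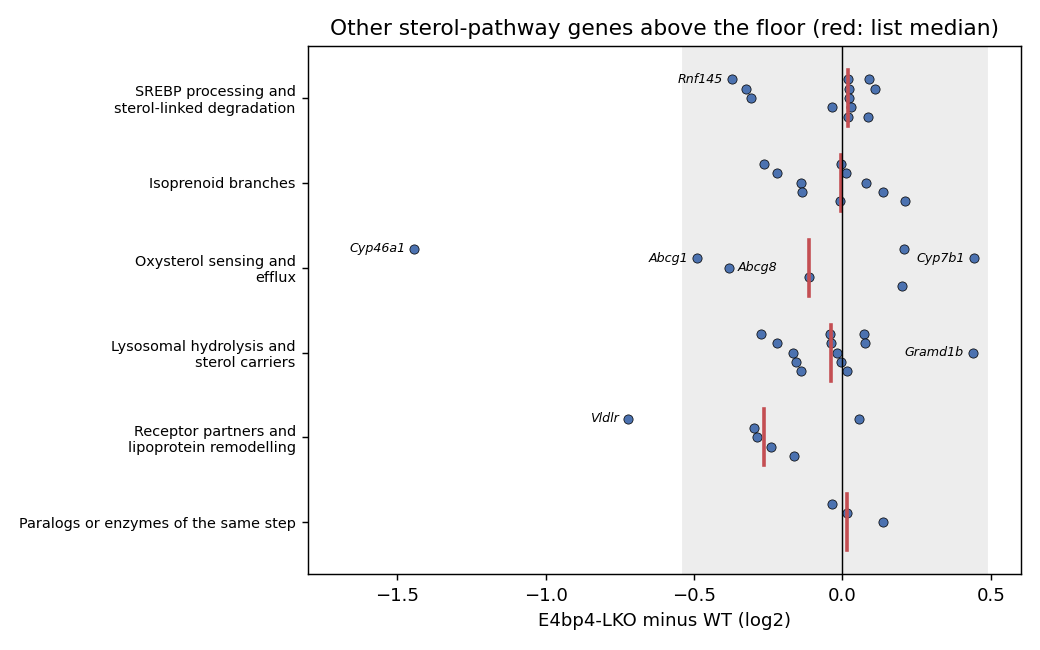
Difference between the arrays (E4bp4-LKO minus WT, log2, x axis) of the genes above the floor in 6 lists of other sterol-pathway genes (y axis; points are genes, red bars list medians, grey band the central 95% of genes above the floor). Cyp46a1 (-1.44) and Vldlr (-0.72) lie outside the grey band on the left, and points are named where they differ by at least 0.36.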

How the data were processed

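Liver RNA of WT and E4bp4-LKO mice was measured on 1 array each, from 400 ng of pooled total RNA per the labels' protocols. The authors deposited log2 intensities, 1 per probe set. The submitters' processing notes name RMA and R 3.4.0. RMA subtracts background, gives the probes of both arrays the same distribution before combining them into probe sets, and compresses differences of dim genes. The deposited probe-set values still differed slightly in distribution, with medians of 3.74 (WT) and 3.75 (E4bp4-LKO). Scanner files and detection calls were not used here, so level alone judged background.

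Of 41345 probe sets, 23521 had 1 gene symbol in the platform annotation, 1814 several and 16010 none. Probe sets with 1 symbol were averaged per gene. The 31 symbols all matched the RefSeq table of assembly GRCm38.p6. The named genes are these 31, Nfil3, and up to 4 genes with the largest difference per list, plus enzymes of the same step. Mbtps1, Mbtps2, Srebf1, Abcg5, Nr1h3 and Idi2 and the marker and clock genes named fall outside this rule and were chosen after their values were seen. Members and lists were chosen with earlier results of these data known. With 1 array per genotype no test was run, and the number of arrays limits the precision. The code for gene averaging and fold counts was checked on simulated data. The simulated noise was smaller than the SD between probe sets, and only genes well above the floor were changed. This check says nothing about how well calls at 1.2-fold hold in the real data. Alternatives changed the floor, the probe-set rule and the scaling. Python 3.11.15, numpy and pandas were used. Protein sequences were not used here, so a planned comparison of paralogs was not made.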

Additional observations from a re-analysis of the deposited data

How the results depend on the processing

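No cholesterol gene reached 1.5-fold under any of the 8 alternatives: other floors (25th percentile, 75th percentile, none), the brightest probe set, probe sets with several symbols, another quantile normalization, removal of the intensity trend, and centring on the median gene. The number lower by at least 1.2-fold was 0 instead of 1 after trend removal and after centring, because Mylip lies near that mark. The median over the genes ran from -0.04 to 0.02. Of 214 values of single genes under an alternative, 213 moved by less than 0.22, the SD between probe sets of a gene, and the exception was Scap (-0.11 from its brightest probe set against 0.15). Many of these values could not move, so the count says little. A change of floor leaves a gene's difference as it was, and so did probe sets with several symbols for the 27 genes. Taking the brightest probe set can alter only Npc1 and Scap. The sign also changed for Mvk and Lrp1, which lie near 0, after trend removal and centring. No paired analysis was possible because each genotype has 1 array and no test was run. Leaving out a sample was not possible for the same reason.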

Other observations

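Genes that use isoprenoids made on the way to cholesterol showed a median difference of -0.01 over 10 of 12 genes above the floor, and none differed by 1.5-fold. Rce1, a protease that trims prenylated proteins, differed by -0.27, Dhdds, which starts the synthesis of dolichol, by -0.22, Coq2, of ubiquinone synthesis, by 0.21, and Icmt, a methyltransferase for prenylated proteins, by -0.14. Idi2 lay below the floor. In the list of lysosomal hydrolysis and sterol carriers, all 13 genes were above the floor, with a median of -0.04. Gramd1b, a carrier of plasma membrane cholesterol, was highest, at 4.24 (WT) and 4.68 (E4bp4-LKO), close to the floor. The lysosomal membrane gene Lamp1 differed by -0.27, the cholesteryl ester hydrolase genes Nceh1 and Lipa by -0.22 and -0.17.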
